A study of Mus musculus with 2 samples.

Results

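Adgre1, Bcl11b and Ikzf1 were examined as hosts of circular RNAs (circRNAs) in mouse small intestinal crypts, because each is a gene best known from cells of the immune system. Their circRNAs were found by the gene name that the deposited table gives each circRNA, and they numbered 4 of the 1132 listed, from 3 of 885 named hosts. Total RNA of wild-type small intestine was sequenced in 2 libraries, replicates 1 and 2 of 1 group, with crypts in the sample titles and stem cells in the cell type entry. No treatment, age, sort or second group is recorded, so the design gives a description of the 3 hosts and a comparison of the 2 libraries. Nothing in the labels ties the libraries to different mice, so any spread between them may be technical.

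A circRNA forms when the spliceosome joins the end of an exon to the start of the same exon or of one upstream, and a read across that join, a back-splice read, is what the table counts. Tissue macrophages lie in the lamina propria around the crypts, and intraepithelial lymphocytes sit between the epithelial cells themselves. Adgre1 encodes an adhesion receptor on the surface of mouse macrophages, where it serves as their classical marker. Ikzf1 encodes Ikaros, a zinc finger factor needed for lymphocyte development, and Bcl11b encodes a zinc finger factor of T cell commitment that also acts in neurons and skin.

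Adgre1, Bcl11b and Ikzf1 each had 1 circRNA with both ends at annotated splice sites, and the joins that identify these circRNAs are shown 5′ to 3′. Lower case marks the last 30 bases of the circle and capitals mark the first 30, so the back-splice lies where the case changes.
Adgre1 join: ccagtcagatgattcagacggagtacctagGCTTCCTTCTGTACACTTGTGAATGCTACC
Bcl11b join: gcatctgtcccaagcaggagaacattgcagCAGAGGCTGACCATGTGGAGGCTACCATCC
Ikzf1 join: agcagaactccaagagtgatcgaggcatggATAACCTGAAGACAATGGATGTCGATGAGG
The whole Adgre1 circle, the most abundant of the 3, follows with its second exon in capitals, and the whole Ikzf1 circle follows with the annotated start codon in capitals. All sequence is that of GENCODE transcripts (release M21, mm10), not of reads.
Adgre1 circle: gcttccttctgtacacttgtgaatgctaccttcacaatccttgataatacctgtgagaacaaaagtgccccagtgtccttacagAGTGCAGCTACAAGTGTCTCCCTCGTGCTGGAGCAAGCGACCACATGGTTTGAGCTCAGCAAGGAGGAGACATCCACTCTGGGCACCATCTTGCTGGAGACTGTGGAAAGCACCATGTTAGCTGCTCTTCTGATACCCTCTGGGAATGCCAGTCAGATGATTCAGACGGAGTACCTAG
Ikzf1 circle: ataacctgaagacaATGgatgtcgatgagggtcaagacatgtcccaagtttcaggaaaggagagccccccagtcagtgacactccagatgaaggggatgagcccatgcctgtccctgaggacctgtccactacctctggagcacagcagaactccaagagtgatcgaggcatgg

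Adgre1 was the one host of the 3 with reads in both libraries, which 330 of the 1132 listed circRNAs also had. Its exonic circRNA (ENSMUSG00000004730, chr17:57419322-57420524, plus strand, mm10) was read 4 times across its join in replicate 1 and 13 times in replicate 2. Levels are given as CPM, the reads of a circRNA scaled to 1000000 back-splice reads listed for the library, which made a single read 282 CPM in the first library and 225 CPM in the second. The Adgre1 circRNA stood at 1128 and 2927 CPM, a mean of 2028 ± 1272 CPM (SD, n = 2). A second Adgre1 feature (chr17:57418888-57420524) had 0 listed reads in replicate 1 and 5 in replicate 2. Over both features Adgre1 had 4 and 18 reads and a mean of 2591 ± 2068 CPM, rank 90 of the 885 named hosts. The SD was large beside the mean, so the level of Adgre1 is known only roughly.

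Bcl11b and Ikzf1, the lymphoid factors, had the same low counts as each other. The Bcl11b circRNA (ENSMUSG00000048251, chr12:107989465-107989830, minus strand) was listed at 0 reads in replicate 1 and had 4 in replicate 2. The Ikzf1 circRNA (ENSMUSG00000018654, chr11:11700205-11707904, plus strand) was likewise listed at 0 and had 4. Both came to 0 and 901 CPM, and they tied with other hosts, 52 in all, at rank 450. A listed 0 need not mean that no read was present. A total of 2 reads was found for 373 circRNAs, and 372 of them carried both in the same library. The table also lists 41 circRNAs on the strength of 1 read.

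**Figure D1:**
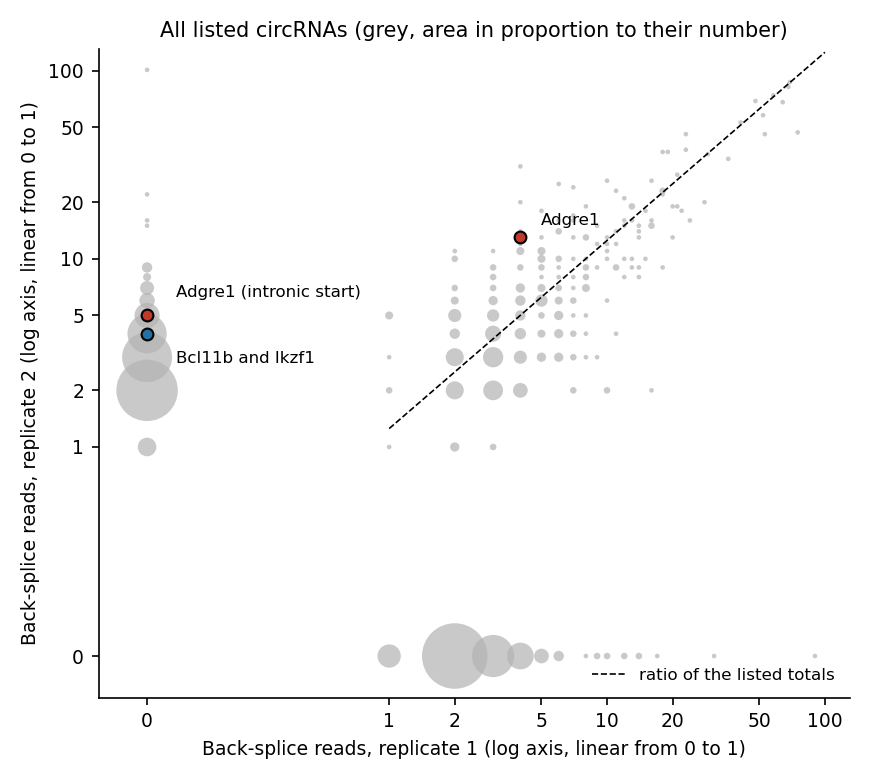
Back-splice reads in replicate 1 (horizontal) and replicate 2 (vertical) for all 1132 listed circRNAs, in grey with the area in proportion to the number of circRNAs at a point, and the 4 circRNAs of Adgre1, Bcl11b and Ikzf1 in colour. The Adgre1 exonic circRNA (4 and 13 reads) lies above the dashed line, which follows the ratio of the listed totals, and the other 3 lie on the axis of replicate 2, where Bcl11b and Ikzf1 share 1 point.

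Together Adgre1, Bcl11b and Ikzf1 took 4 of the 3546 listed back-splice reads of replicate 1 and 26 of the 4441 of replicate 2. These are shares of 0.113% (95% Clopper-Pearson interval 0.0307 to 0.289%) and 0.585% (0.383 to 0.857%), a mean of 0.349 ± 0.334% (n = 2). Adgre1 alone took 0.113% and 0.405% (0.240 to 0.640% in replicate 2). Replicate 2 was thus the higher library for all 4 circRNAs, and 22 of the 30 reads came from Adgre1. The intervals cover counting error only, and take reads as independent. Reads lacking molecular identifiers can be copies of 1 molecule, and the intervals are then too narrow. In such bulk RNA, fewer cells that make a circRNA and fewer copies per cell cannot be told apart.

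**Figure D2:**
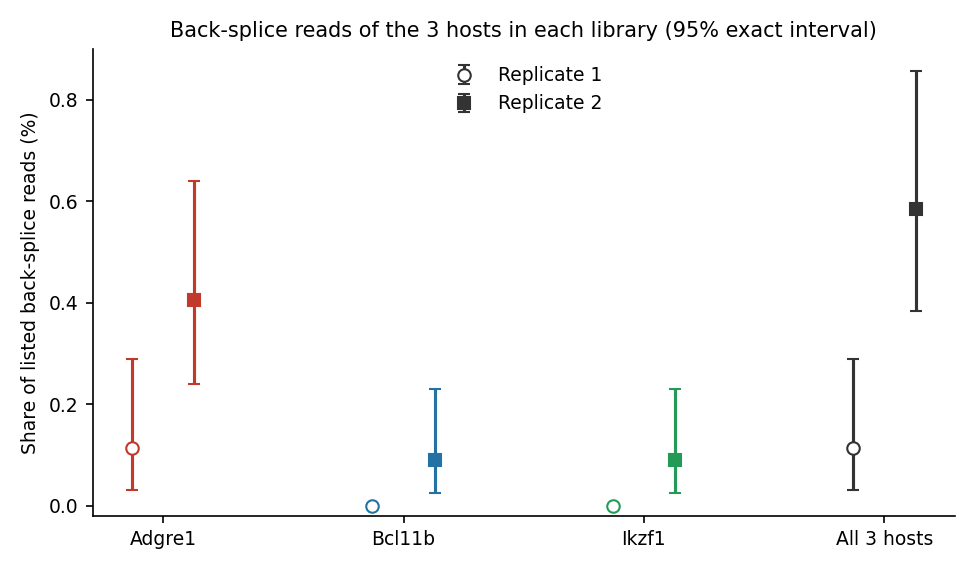
Share of the listed back-splice reads (percent) for Adgre1, Bcl11b, Ikzf1 and all 3 hosts together, with open circles for replicate 1 and filled squares for replicate 2. Bars are 95% exact intervals for counting error, drawn only where reads were listed, and replicate 2 was higher each time (0.585% against 0.113% for the 3 hosts).

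None of the 4 circRNAs passed the test for a difference between the libraries. Each circRNA's reads were set against the listed library totals with an exact binomial test (two-sided, Benjamini-Hochberg adjustment over all 1132 circRNAs), and 1.59% of all circRNAs passed an adjusted p of 0.05. At an unadjusted p under 0.05 there were 106 of 1132 circRNAs and 0 of these 4 in the same exact test. For the exonic Adgre1 circRNA the log2 ratio of replicate 2 to replicate 1 was 1.38, with an unadjusted p of 0.0925 and an adjusted p of 0.434 (exact binomial test). The other Adgre1 feature had an adjusted p of 0.433, and Bcl11b and Ikzf1 had 0.434 each (exact binomial test). For Bcl11b and Ikzf1 the split of 0 and 4 is already the most uneven toward replicate 2 that 4 reads allow, and its unadjusted p in the exact test was 0.134. With reads summed per host, an added test in which 2.26% of 885 hosts passed, Adgre1 had an unadjusted p of 0.0165 and an adjusted p of 0.266 (exact binomial test). The test sets 1 library against the other, takes reads as independent and takes a listed 0 as no read. It therefore covers counting error only, and not reads that were left out of the listing. Of 373 circRNAs with 2 reads, 372 had both in the same library, so a listed 0 may not be a true count. The p-values of Bcl11b, Ikzf1 and the second Adgre1 feature rest on such zeros. A p above the threshold at so few reads does not show that the libraries held equal amounts.

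The split of reads seen for Bcl11b and Ikzf1 was common in the table. Of 122 circRNAs with 4 reads in total, 71 (58.2%) had all 4 in replicate 2, 33 had all 4 in replicate 1, and 18 had reads in both. Of 72 circRNAs with 5 reads, as in the second Adgre1 feature, 29 (40.3%) were listed in replicate 2 alone. The exonic Adgre1 circRNA lay near the edge of the circRNAs with reads in both libraries and at least 10 in total: 10 of those 167 had a larger log2 ratio of replicate 2 to replicate 1, and the central 90% ran from -1.32 to 1.47 around a median of -0.01.

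The exonic Adgre1 circRNA joined the end of exon 12 to the start of exon 11, of 22 exons in the matched transcript. Exon 11 measures 84 bases and exon 12 measures 178, so the circle was 262 bases long, shorter than the median of 368 bases over the 1008 circRNAs with both ends at splice sites of 1 transcript. Both exons are coding and hold residues 398 to 485 of 931, between the EGF-like repeats and the membrane-spanning part of the receptor. Of the 5 annotated Adgre1 transcripts, 2 hold both ends. Because 262 is not a multiple of 3, the reading frame shifts at the join, and the coding frame met a stop codon after 101 codons, past the join.

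The second Adgre1 feature ended at the same base, 57420524, the end of exon 12. It started 434 bases before exon 11, inside intron 10, which is 5560 bases long, and the authors' table types it as intron. No annotated Adgre1 transcript starts an exon there, so its start rests on the deposited table alone. It held 22.7% of the host's reads, all of them in replicate 2. Such features were not peculiar to Adgre1: of 53 circRNAs typed as intron, 44 had 1 end at an exon edge and 20 shared an end with a splice-site circRNA of the same host. Of the 53, 8 had reads in both libraries, 19 in replicate 1 alone and 26 in replicate 2 alone. Over all 1132 circRNAs these counts were 330, 365 and 437.

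The Bcl11b circRNA was made of exon 2 alone, out of 4 exons. Single-exon circles were 66 of the 1008 (6.55%). The exon measures 366 bases and is coding throughout, for residues 20 to 142 of 884. It is present in 2 of the 3 annotated transcripts, and Bcl11b-202 joins exon 1 to a later exon without it. With a length that is a multiple of 3, its coding frame ran round the whole circle with no stop codon, as did that of 281 of 821 wholly coding circles (34.2%).

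The Ikzf1 circRNA joined the end of exon 3 to the start of exon 2, of 9 exons. At 174 bases (54 and 120 for the exons) it was among the shortest circles, at percentile 1.24 of spliced length. It holds 14 bases before the start codon and then 160 coding bases, for residues 1 to 54 of 535, upstream of the zinc fingers that bind DNA. Its exon 2 start and exon 3 end are both in 5 of the 6 annotated transcripts. The annotated start codon lay inside 152 of 995 circles of coding transcripts (15.3%). Read from that codon, the Ikzf1 circle met no stop codon in any round, as was so for 16 of those 152 circles (10.5%). This is a property of the letters, and no translation was measured.

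**Figure D3:**
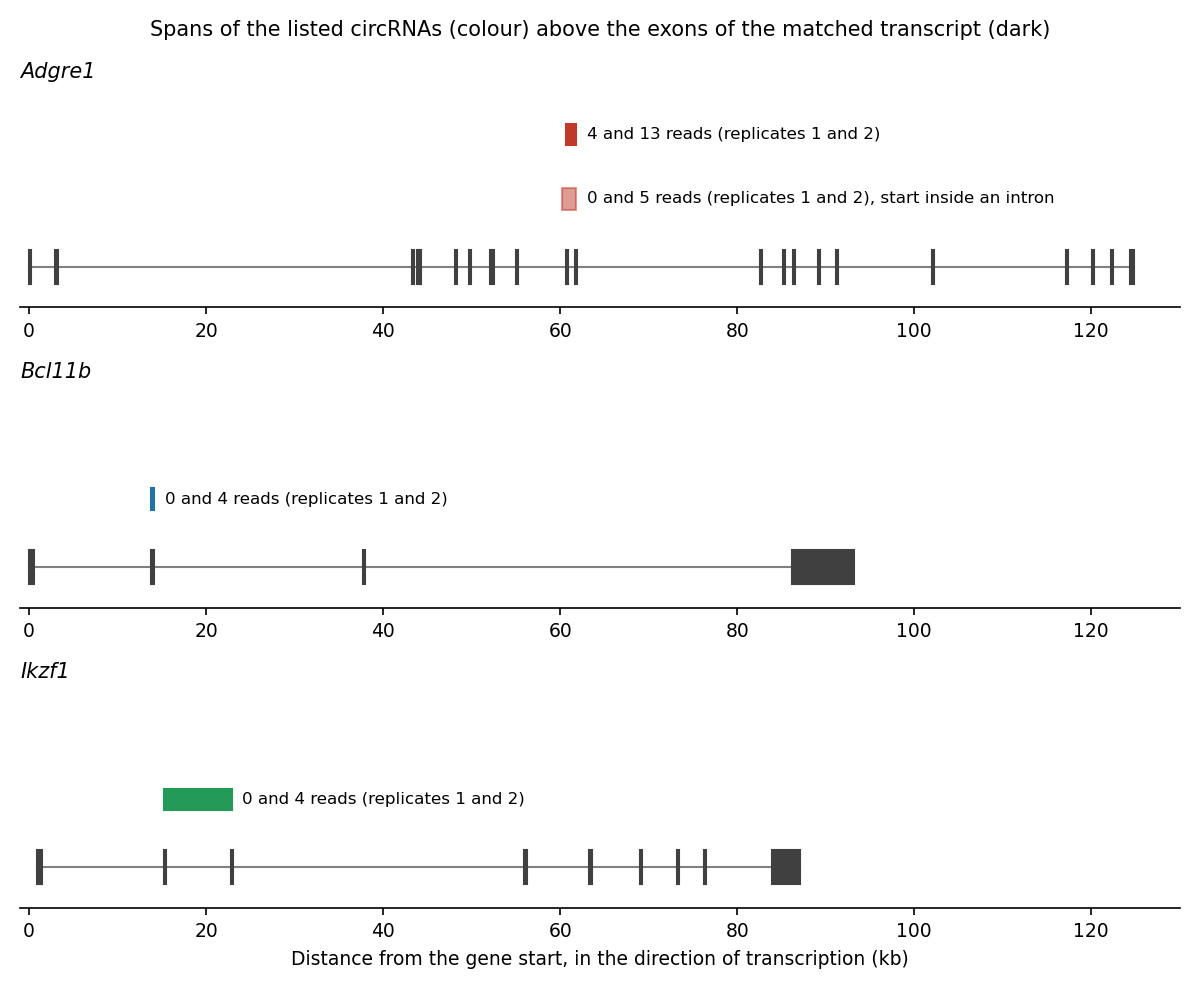
Spans of the 4 listed circRNAs (colour) above the exons of the matched transcript of Adgre1, Bcl11b and Ikzf1 (dark, the shortest exons widened to be visible), by distance from the gene start in kb along the direction of transcription. The Bcl11b and Ikzf1 circRNAs begin at exon 2 near the gene start, and both Adgre1 features lie mid-gene with 1 shared end.

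Bcl11b and Ikzf1 used exon 2 as the first exon of the circle, as did 353 of the 1008 splice-site circRNAs (35.0%), whereas Adgre1 did not. The introns before and after the circle measured 13255 and 23577 bases for Bcl11b, 13736 and 33045 for Ikzf1, and 5560 and 20730 for Adgre1. Over the 1008 circRNAs the medians were 10968 and 8216 bases. The intron after the circle was thus longer than the median for all 3 hosts, at percentiles 81.4, 88.4 and 77.0 for Bcl11b, Ikzf1 and Adgre1. GC content was 57.7% for Bcl11b, 54.0% for Ikzf1 and 50.4% for Adgre1, against a median of 48.8%. No other annotated gene overlapped any of the 4 spans.

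**Figure D4:**
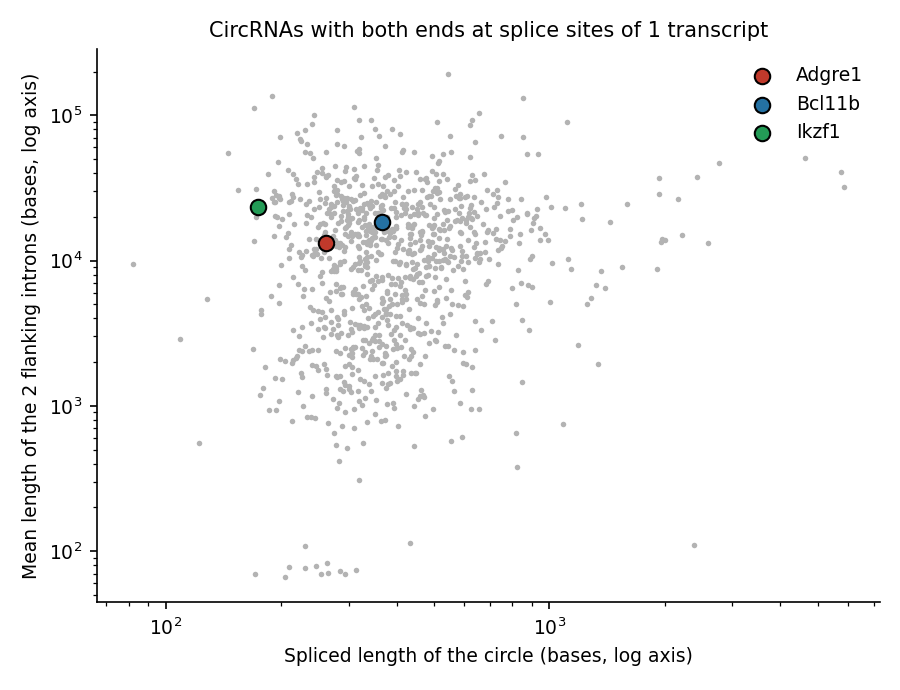
Spliced length of the circle (bases, log axis) against the mean length of its 2 flanking introns (bases, log axis) for the 1008 circRNAs with both ends at splice sites of 1 transcript, in grey, with Adgre1, Bcl11b and Ikzf1 in colour. Ikzf1, at 174 bases, lies at the short edge of the cloud, and all 3 lie above the median for flanking introns.

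Other immune genes were then looked up among the hosts. The table holds back-splice reads and no linear RNA, so a marker that hosts no circRNA may still have been expressed. The 7 lists of immune genes held 135 different genes, all with more than 1 exon. Of these, 5 hosted a listed circRNA: Adgre1, Bcl11b, Ikzf1, Mertk and Tox. The first 3 were chosen as known hosts, so their count is fixed by the choice. Among the other 132 genes, 2 were hosts (1.52%), against 3.98% of all 20596 multi-exon protein-coding genes, and no test was made of that difference.

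Mertk, a receptor tyrosine kinase with which macrophages take up dying cells, had 2 exonic circRNAs, neither listed in both libraries. That of exons 3 to 4 of 19 had 0 and 5 reads, and that of exons 16 to 17 had 2 and 0 reads. Tox, a nuclear factor of T cell development, had 1 circRNA of exons 2 to 3 of 9 with 0 and 3 reads. The exact binomial test gave adjusted p of 0.433, 0.434 and 0.454 for these circRNAs. Each of these p-values rests on a listed 0, which may not be a true count. Mertk thus had 7 reads over both circRNAs and Tox had 3, beside 4 each for Bcl11b and Ikzf1. Over all 1132 listed circRNAs, 330 had reads in both libraries. Among the hosts found in the immune lists, Adgre1 alone had a circRNA that was listed in both libraries. The lists do not hold every gene of immune cells, so this covers the listed genes only.

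By cell type, the macrophage and dendritic cell list had 2 hosts of 25 genes (Adgre1 and Mertk, 6 and 23 reads over their circRNAs) and the T cell list had 1 of 24 (Bcl11b, 0 and 4 reads). The list of Ikaros and lymphoid transcription factors had 3 of 17 (Bcl11b, Ikzf1 and Tox, 0 and 11 reads), and the Ikaros relatives Ikzf2 to Ikzf5 and the Bcl11b relative Bcl11a were not among them. The pan-leukocyte list, which holds Ptprc (CD45), had 0 of 21. B and plasma cells had 0 of 17, intraepithelial lymphocytes with NK and innate lymphoid cells 0 of 19, and granulocytes and mast cells 0 of 18. No gene of the pan-leukocyte list was thus listed as a host, beside 3.98% of all multi-exon protein-coding genes. Lists this short can hold 0 hosts at that share, so the zeros do not show whether leukocytes were present. Whether leukocytes in the preparations were the source of the Adgre1, Bcl11b and Ikzf1 reads was not tested.

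Gene length was in view as well. Adgre1 spans 124.8 kb, Bcl11b 93.2 kb and Ikzf1 87.9 kb, at percentiles 90.9, 86.9 and 86.0 of multi-exon protein-coding genes. Of the 2874 such genes at least as long as Ikzf1, 346 (12.0%) were hosts, and this length takes in the 3 chosen hosts by construction. Of the other 26 immune list genes of that length, 2 (7.69%) were hosts, Mertk and Tox. The part of gene length in these counts was not tested.

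For the tissue itself, the epithelium list had 4 hosts of 20 genes with more than 1 exon, with 91 and 98 reads. Over all multi-exon protein-coding genes, 3.98% were hosts. The list was chosen with earlier results of these data known, so its higher share may follow from the choice and was not tested. Sis, the sucrase-isomaltase gene, had 64 and 68 reads, Enpep, a brush-border peptidase gene, 24 and 16, and Epcam, the epithelial adhesion molecule gene, 0 and 9. Slc5a1, a glucose transporter gene, had 3 and 5 reads. The 4 and 18 reads of Adgre1 were thus fewer than those of Sis and Enpep and more than those of Epcam and Slc5a1. Intestinal stem cell markers had 0 hosts of 18, and stroma, muscle and endothelium 0 of 16. Lists this short can hold 0 hosts at a share of 3.98%, so neither count shows that such RNA was absent.

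Among the adhesion receptors related to Adgre1, 1 of the other 26 was a host (3.85%, near the 3.98% of all genes). This was Adgrg4, with a circRNA of exon 2 that had 2 and 0 reads. Adgre5, which encodes the leukocyte receptor CD97, and Adgre4 were not listed as hosts.

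**Figure D5:**
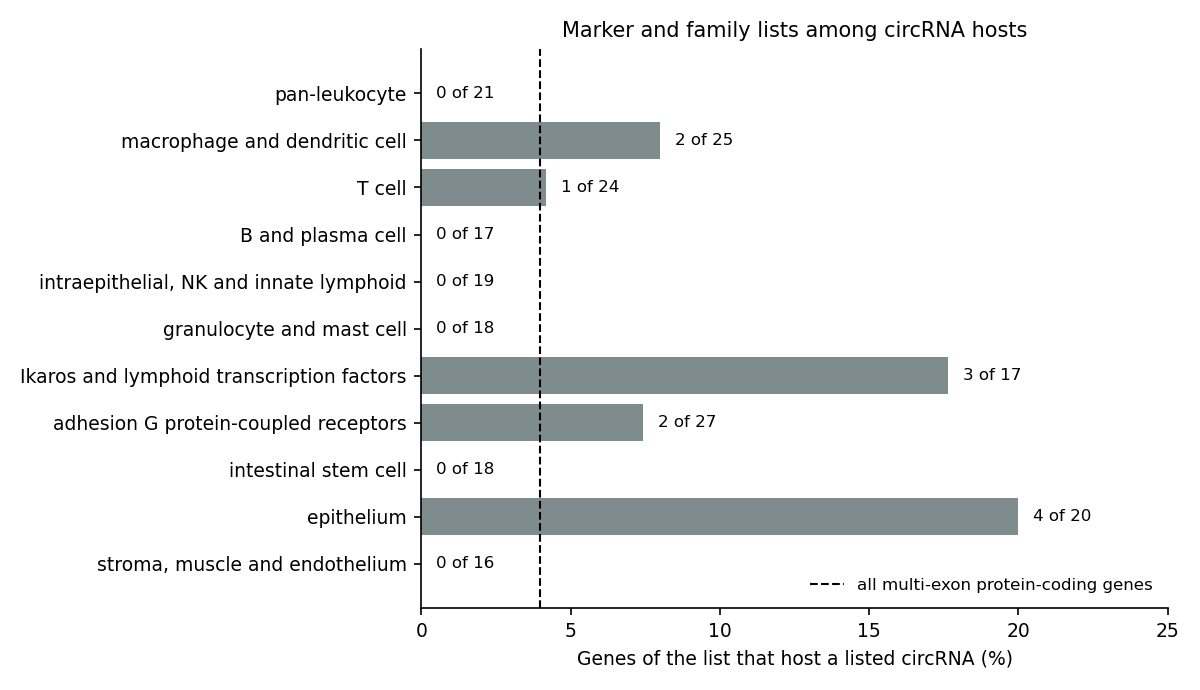
Genes of each list that host a listed circRNA, in percent of the genes with more than 1 exon, with the counts beside the bars and the share of all multi-exon protein-coding genes (3.98%) as a dashed line. Of the immune lists, those of macrophages and dendritic cells (2 of 25), T cells (1 of 24) and lymphoid transcription factors (3 of 17) have hosts, which include the 3 chosen genes, and the pan-leukocyte list has 0 of 21.

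Hosts with reads most like those of the 3 genes were sought by the sum of absolute differences in reads over the 2 libraries, among protein-coding hosts with the same number of circRNAs. For Adgre1, Fbxw4 (4 and 15 reads, a distance of 3) came first of 132, then Ube3a (0 and 17, distance 5) and Car8 (7 and 12, distance 9). Bcl11b and Ikzf1 had 42 other hosts with identical reads, of which Ankra2, Arhgef28 and Ascc3 come first by alphabet. These hosts were picked as the nearest by reads in 2 libraries, so their likeness is fixed by the choice and describes counts only. It cannot show whether the immune hosts differ from the rest.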

How the data were processed

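Total RNA was extracted from small intestine and made into libraries with an MGI kit, per the labels' protocols. Reads were placed on mm10, per the submitters' processing notes. How they were aligned, called as circRNAs and filtered is not given in the sources used here. Per the file headers, the table gives raw counts of back-splice junction reads and a CPM per library. These deposited CPM values are a signal in proportion to the count within a library (272 and 233 per read), and served as an alternative to CPM of the listed reads. The listed totals, 3546 and 4441 reads, are not the sequencing depth. Columns were matched by sample title, and 0 were left unused.

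Positions were matched to GENCODE M21, on the same build. A splice-site circRNA starts and ends at exon edges inside 1 transcript (coding genes, basic set and longest coding sequence preferred). Exact binomial tests used scipy 1.17.1, and were tested on simulated data. Known changes were drawn at the real depth too, but their recovery was required only at a depth far above it. Power at the real depth is not reported here. Size factors came from edgeR 4.0.16 (TMM) and DESeq2 1.42.0. The deposited CPM match CPM on the TMM library sizes (3676 and 4284 reads), so those are 1 scaling and not separate alternatives. A group of 2 libraries allows no model of spread, so neither tool's test was run.

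The hosts and gene lists were chosen with earlier results of these data known. Genes named are the 3 hosts, every host in the immune and adhesion receptor lists, the 3 epithelial hosts with most reads, and the 3 nearest hosts by reads. Slc5a1, list genes named as absent (Ptprc, Ikzf2 to Ikzf5, Bcl11a, Adgre4 and Adgre5) and the gene length class were chosen after the values were seen. Alternatives were other scalings, splice-site circRNAs alone, a minimum of 5 reads in total, and each library left out.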

Additional observations from a re-analysis of the deposited data

How the results depend on the processing

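With at least 5 reads in total required, 2 circRNAs of the 3 hosts (both of Adgre1) and 2 immune hosts were left. One circRNA of the 3 hosts (1 of 4) had reads in both libraries, beside 330 of all 1132 circRNAs. Without 1 library in turn, the circRNAs of the 3 hosts ranged from 1 to 4 and the immune hosts from 2 to 5, the lower values without replicate 2, and the share of reads from 0.113% without replicate 2 to 0.585% without replicate 1. Over all circRNAs, 18 passed the exact binomial test, which covers counting error only, and 9 passed with splice-site circRNAs alone. None of the 4 circRNAs passed the test under any setting in which it was tested, with adjusted p from 0.256 to 0.446 (exact binomial test). Without replicate 1 and without replicate 2 the level of Adgre1 was 4053 and 1128 CPM, and that of Bcl11b and of Ikzf1 was 901 and 0 CPM. With 2 libraries, such a value always lies within 1 SD of the mean, so the SD is no measure of stability here. The deposited CPM and splice-site circRNAs alone moved no host's level by over 1.5 times. No paired analysis was possible because there is 1 group. Depth limits every value: 4 reads carry a large counting error.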
